A study of Sus scrofa with 50 samples.

Results

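In vitro produced pig embryos (Sus scrofa) were compared between the 4-cell stage and the morula stage. The members were all embryos labelled as in vitro at these stages, 5 4-cell embryos and 10 morulae, which are 15 of the 50 single embryos of the series. Both groups came from oocytes of abattoir ovaries, matured in vitro in medium with FGF2, LIF and IGF1, at first also with gonadotropins. The oocytes were fertilized with frozen semen of 1 Duroc boar, and the embryos were cultured in PZM-5 medium under reduced oxygen. The sample labels name no further treatment. The 4-cell embryos were collected 48 h and the compacted morulae 100 h after fertilization. Per the methods, both were of normal morphology and came from embryos preselected at an earlier cleavage stage. The RNA of each whole embryo was amplified with Smart-seq2, which starts from the poly(A) tail. The study's methods describe several experiments but do not tie an embryo to one, so no experiment could enter a model, and p-values measure the spread between these embryos only. The sex labels of the morulae were not used.

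The oocyte stores mRNAs that carry the embryo through its first cleavages. In the pig the genome of the embryo is first transcribed at a high rate from the 4-cell stage onwards, while stored mRNAs lose their poly(A) tails and are degraded. At the morula stage the blastomeres flatten against each other, form junctions and begin to part into the precursors of trophectoderm, the outer layer that later forms placenta, and inner cell mass.

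The values are CPM, the reads of a gene for each M of effective reads, the library total times a normalization factor. CPM gives shares of a library, so the total RNA of an embryo was not measured. Since capture starts from the poly(A) tail, loss of an mRNA and shortening of its tail cannot be told apart, and reads do not record strand, so overlapping antisense genes cannot be told apart either. All values came out as whole reads, with a tolerance of 0.1 reads, and the depth was 2.66 to 5.54 M reads per embryo, so that 1 read was worth 0.175 to 0.316 CPM. Cumulus cells or sperm can adhere to an embryo. Their marker lists summed to 31.0 to 102 CPM (cumulus) and 60.8 to 90.6 CPM (sperm) in the 4-cell embryos, and to 81.9 to 1103 and 31.8 to 60.4 CPM in the morulae. Of the defining markers, PTX3 of cumulus cells and PRM1, TNP1, ODF1 and SMCP of sperm were listed at 0 in all 15 embryos, and CYP19A1 and CYP11A1 reached at most 1.05 and 2.31 CPM. Other defining markers were detected. VCAN was listed at 0 in no embryo and reached 37.3 CPM, CD44 reached 19.5 CPM, and AKAP4 of sperm, at 0 in 1 embryo, reached 5.79 CPM. Of 13 cumulus markers tested 2 rose and 1 fell. The high sums came from PTGS2, a prostaglandin synthase, with 1073 CPM in morula G2 and 0.5265 CPM in morula G1. Blood markers summed to at most 12.4 CPM in any embryo, and the oviduct list to 36.1 to 57.8 CPM in the 4-cell embryos, nearly all from the axonemal dynein gene DNAI1 (35.7 to 56.9 CPM).

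A pair of embryos stood apart from their groups. Each embryo was placed on the line from the mean of the other 4-cell embryos (position 0) to the mean of the other morulae (position 1) over all genes tested. Morula B2 lay at 0.722, and the other 9 morulae lay at 0.962 to 1.081. The 4-cell embryo A1 lay at 0.118, and the other 4 lay at -0.03 to 0.04. Results are therefore given with B2, and without it where that changes what is said. The normalization factor of morula E2, 0.930, was below that of every other embryo (1.03 to 1.28).

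**Figure D1:**
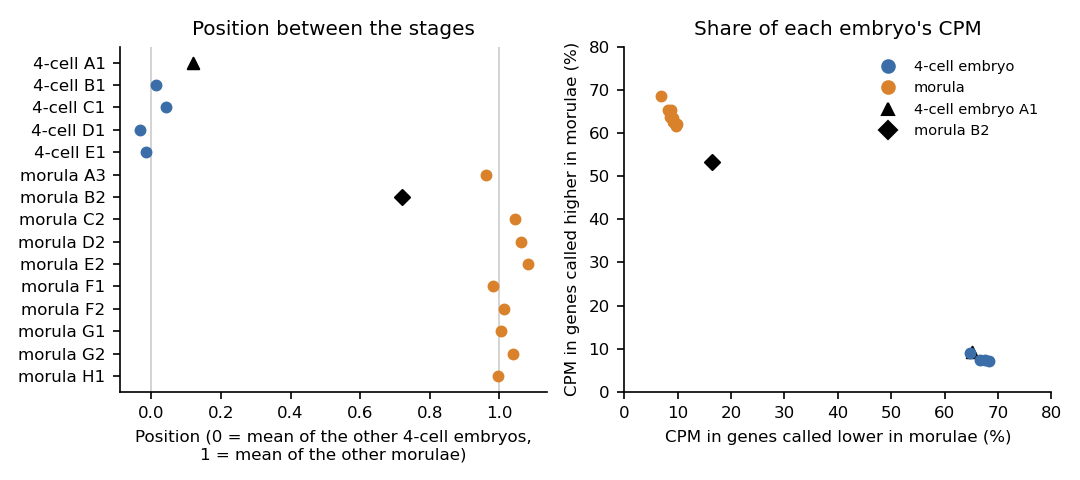
Left, the position of each embryo between the stages, without units, where 0 is the mean of the other 4-cell embryos and 1 the mean of the other morulae. Right, the percent of an embryo's CPM in genes called lower (horizontal) and called higher (vertical) in morulae. Each point is 1 embryo: B2 lies at 0.722 on the left, and on the right at 16.3% and 53.4%, between the 4-cell embryos and the other 9 morulae but nearer to the morulae.

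Differentially expressed genes (DEGs) were those with an adjusted p (limma, Benjamini-Hochberg) under 0.001 and an absolute log2 difference over 1, where the difference is that of the mean log2(CPM + 1), morulae minus 4-cell embryos. It understates the change of genes of a few CPM. The test covered 21780 genes that passed 0.5 CPM in some embryo, of which 3477 (16.0%) rose and 4949 (22.7%) fell, 38.7% in all. Without B2 these were 3561 (16.5%) and 5035 (23.4%) of 21559 genes. With all embryos the shares depended on the mean level of a gene. Under 1 CPM 0.0826% of 7262 genes rose and 5.52% fell, and from 1 to 10 CPM 11.9% and 28.9%. The shares were 29.4% and 34.0% from 10 to 100 CPM, and 42.1% and 31.0% from 100 to 1000 CPM. Of the DEGs, 8307 were called in the same direction with and without B2, 119 with it only, 289 without it only, and 0 were called in opposite directions. The log2 difference exceeded 4 in 619 genes that rose and in 927 that fell. The genes that fell held 66.5% ± 1.55 of the CPM of the 4-cell embryos (SD, n = 5) and 8.71% ± 0.887 of the CPM of 9 morulae (SD, n = 9), with 16.3% in B2. The genes that rose held 8.02% ± 0.996 at the 4-cell stage, 64.2% ± 2.16 in the 9 morulae and 53.4% in B2. These shares describe the genes that the test chose. The 15 embryos did not overlap between the stages in 7264 genes, 33.4% of those tested, and in 6971 of the DEGs.

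Of the transcripts that identify an oocyte, BMP15 and ZP4 were abundant in all 4-cell embryos and were lower in all morulae. Of 10 tested members of the list of oocyte growth factors and zona proteins 7 fell and 1 rose, with a median log2 difference of -3.78, beside -0.14 over all genes tested. BMP15, an oocyte growth factor of the TGF-beta family (chrX:44613122-44620575, Sscrofa11.1), was at 2980, 2575, 1896, 2001 and 2900 CPM in the 4-cell embryos A1 to E1. In the morulae its level was 7.51 CPM at the lowest, 19.05 at the median and 268 at the highest, the last in B2. No morula reached the lowest 4-cell embryo, and the 9 morulae other than B2 were at 61.7 CPM or below. The log2 difference was -6.44 ± 0.53 (SE, limma adjusted p = 1.4e-09). ZP4, a protein of the zona pellucida, fell by 5.14 ± 0.57 on the log2 scale, from 437 to 2943 CPM to 6.03 to 243 CPM. The member that rose was CD9, a membrane tetraspanin needed on the egg for sperm fusion and present in many somatic cells, with at most 12.1 CPM in a 4-cell embryo and at least 141 CPM in a morula. The receptor tyrosine kinase KIT was at 65.0 ± 23.8 CPM in the 4-cell embryos (SD, n = 5) and 41.6 ± 23.4 in the morulae (SD, n = 10) and was not called (limma adjusted p = 0.11).

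Among factors of oocyte meiosis some fell, and more were not called. Of 27 meiotic kinases and cytostatic factors tested 11 fell and 2 rose (median log2 difference -0.83). WEE2, the oocyte kinase that inhibits CDK1 (chr18:8171133-8196836), was at 3048, 2620, 2669, 3157 and 3618 CPM in the 4-cell embryos, and at 7.60 CPM at the lowest, 18.4 at the median and 427 at the highest in the morulae. All 4-cell embryos were above all morulae, and B2 was again the highest of these. The log2 difference of WEE2 was -6.94 ± 0.58 (SE, limma adjusted p = 1.7e-09). MOS, the kinase that sustains the arrest of the mature oocyte, fell by 6.02 ± 0.58, and PTTG1, securin, fell by 3.46 ± 0.31, from a mean of 3758 CPM, among the 5 highest means at the 4-cell stage. MAD2L1, a protein of the spindle checkpoint, rose by 2.19 ± 0.28, from 163 ± 81.2 to 673 ± 150 CPM. H1FOO, the linker histone of the oocyte (chr13:68921491-68943061), was at 2945, 2041, 1645, 1774 and 2764 CPM in the 4-cell embryos and at 6.93 (lowest), 18.3 (median) and 269 CPM (highest, B2) in the morulae. Its groups did not overlap (log2 difference -6.63 ± 0.54, limma adjusted p = 9.4e-10). NPM2, an oocyte histone chaperone, fell by 5.00 ± 0.54. Its relative NPM1, a nucleolar protein of most cells, was at 1540 ± 148 and 2573 ± 382 CPM. Its log2 difference of 0.73 ± 0.16 was under the threshold of 1.

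The subcortical maternal complex, a protein lattice below the egg surface on which early cleavage depends in the mouse, and other maternal effect genes gave 13 members that fell and 2 that rose among 17 tested (median log2 difference -3.75). NLRP4 fell from 261 ± 37.5 to 5.998 ± 11.135 CPM, and PADI6, a peptidylarginine deiminase of the complex, from 443 ± 118 to 11.5 ± 20.2 CPM. Without B2 the morula means were 2.52 and 5.14 CPM. DPPA3, which protects maternal methylation in the mouse zygote, rose by 1.98 ± 0.29, from 320 to 855 CPM to 994 to 3679 CPM, and B2 had the lowest morula value.

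The lists of mRNA turnover held genes of both directions. Of 34 members of the decay machinery 11 fell and 6 rose, and of 26 storage proteins 11 fell and 6 rose. Over all genes tested 22.7% fell and 16.0% rose. BTG4, the adaptor that brings the CCR4-NOT deadenylase to maternal mRNAs in the mouse (chr9:39253116-39281327), was at 5734, 4273, 2178, 6597 and 6895 CPM in the 4-cell embryos, and at 9.39 (lowest), 44.6 (median) and 608 CPM (highest, B2) in the morulae. The stages did not overlap, and the log2 difference was -6.48 ± 0.56 (SE, limma adjusted p = 2.5e-09). CNOT6L, a catalytic subunit of that deadenylase, fell by 2.95 ± 0.27, from 393 ± 46.1 to 53.6 ± 21.99 CPM. Among the storage proteins CPEB1, the factor of cytoplasmic polyadenylation, fell by 5.41 ± 0.57 and ZAR1L by 5.76 ± 0.46.

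In several protein families a member fell while another rose. These pairs were chosen after their values were seen, except for the member that the naming rule gave. EIF4E1B, the cap-binding protein of oocytes, was at 95.9, 63.3, 43.8, 53.2 and 117 CPM in the 4-cell embryos and at most 6.26 CPM in a morula. EIF4E, the general cap-binding protein, was at 17.9 to 144 CPM in the 4-cell embryos and at 330 to 1251 CPM in the morulae. The log2 differences were -5.27 ± 0.42 and 3.44 ± 0.38, and neither gene overlapped between the stages. PABPC1L, the poly(A)-binding protein of oocytes, fell by 5.19 ± 0.42, from 81.3 ± 6.63 to 1.77 ± 2.25 CPM (1.12 without B2), and PABPC1 rose by 5.41 ± 0.34, from 19.9 ± 19.98 to 664 ± 118 CPM. Among the IGF2BP family of mRNA-binding proteins IGF2BP3 fell by 3.93 ± 0.24 and IGF2BP1 rose by 5.13 ± 0.41. KPNA7, the importin alpha of oocytes and early embryos (chr3:6167382-6201282), had the largest fall under the naming rule. Its 4-cell values were 2513, 1321, 2220, 1461 and 3006 CPM, and in the morulae it was at 4.47 (lowest), 8.46 (median) and 235 CPM (highest, B2). The log2 difference was -7.22 ± 0.61 (SE, limma adjusted p = 1.6e-09), and KPNA4 of the same family rose by 4.70 ± 0.33, from 7.0003 ± 3.99 to 199 ± 83.9 CPM.

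**Figure D2:**
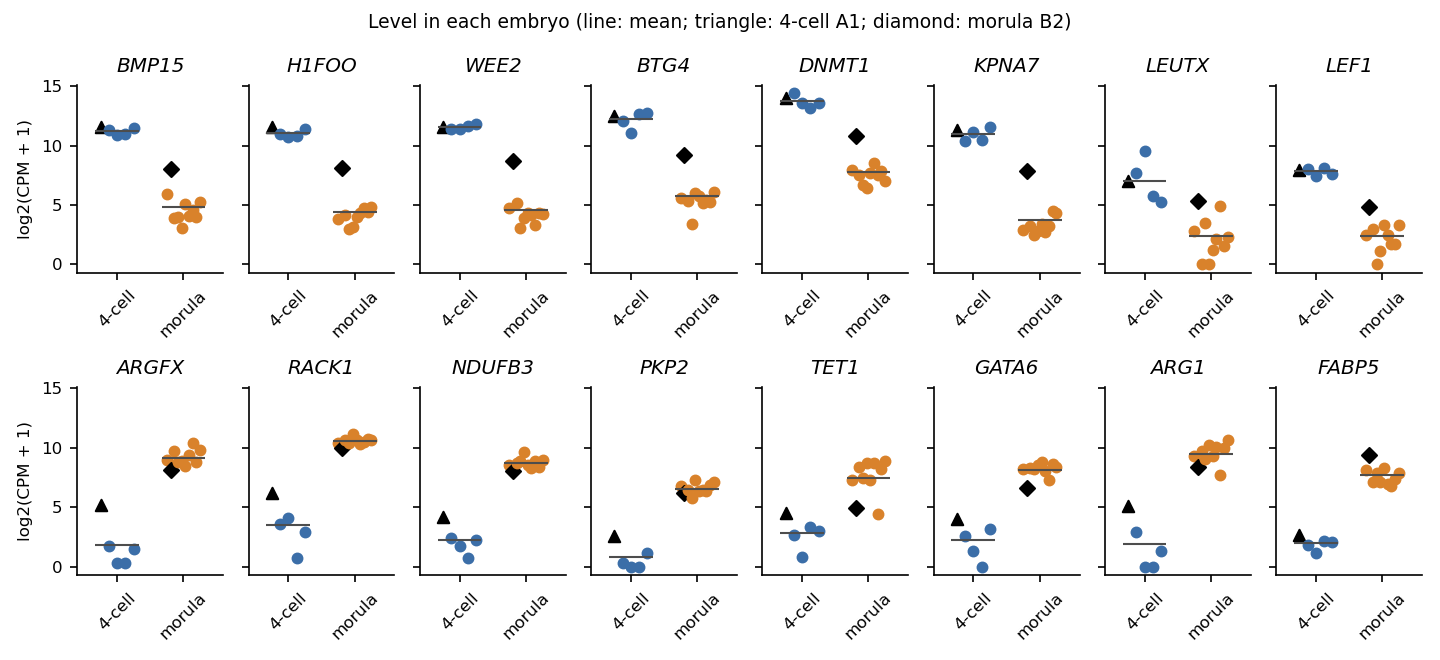
Levels of 16 genes as log2(CPM + 1), 1 point per embryo and 1 panel per gene, with the 4-cell embryos on the left of each panel and the morulae on the right. Lines are stage means, the triangle is 4-cell embryo A1 and the diamond is morula B2. B2 is the highest morula in the 8 genes of the upper row, and A1 is the highest 4-cell embryo in the 8 genes of the lower row.

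The other genes among the 10 largest falls have varied known roles. SRPX, a sushi-repeat protein, fell by 6.82 ± 0.57 from 1903 ± 870 CPM, and CCSER1 by 6.55 ± 0.59 from 795 ± 248 CPM. AZIN2, an activator of polyamine synthesis, fell by 6.83 ± 0.63 from 367 ± 75.5 CPM, FREM1, an extracellular matrix protein, by 6.69 ± 0.60 from 321 ± 48.3 CPM, and KBTBD13 by 6.44 ± 0.55 from 339 ± 104 CPM. B2 was the highest morula for all 10 genes of the largest falls, with 32.9 to 608 CPM. Without B2 their log2 differences ran from -7.68 (KPNA7) to -6.79 (KBTBD13), and each of the 10 falls was larger than with it.

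The 10 largest rises under the naming rule ran from 6.84 (RPL23) to 8.02 (SULT1E1) on the log2 scale. Without 4-cell embryo A1 they ran from 7.49 (RPL23) to 9.04 (SULT1E1), and each of the 10 was larger than with it. SULT1E1, an estrogen sulfotransferase, was at 106, 11.2, 0.242, 0 and 4.78 CPM in the 4-cell embryos, and at 308 (lowest, B2), 2026 (median) and 2789 CPM (highest) in the morulae. The log2 difference was 8.02 ± 0.75 (SE, limma adjusted p = 6.6e-09), and all morulae were above all 4-cell embryos. It was 7.36 without D1, and by edgeR and DESeq2 SULT1E1 (6.496 and 6.32) lay below ARG1 (6.86 and 6.68). TIMM8A, a chaperone of mitochondrial import, was at 95.2, 10.99, 0.242, 1.68 and 2.99 CPM, against 797 to 2351 CPM in the morulae, with a log2 difference of 7.58, or 8.54 without A1 and 6.97 without C1. ARG1, which splits arginine into ornithine and urea, was at 33.8, 6.59, 0, 0 and 1.495 CPM and rose to 204 (lowest), 762 (median) and 1575 CPM (highest), a log2 difference of 7.58, or 8.40 without A1. In these 3 genes A1 held the highest 4-cell value, at most 106 CPM, and still lay below each morula.

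BAD, a pro-apoptotic member of the BCL2 family, rose by 7.24 ± 0.52, PDXK, which makes the active form of vitamin B6, by 7.06 ± 0.56, and ETNPPL, a phospholyase that uses that vitamin form, by 6.99 ± 0.58. ATP6V0D2, a subunit of the vacuolar proton pump, rose by 6.94 ± 0.56. Without A1 the rises of BAD, PDXK, ETNPPL and ATP6V0D2 were 8.03, 7.82, 7.67 and 7.66. The remaining genes of this group were ARGFX, RACK1 and RPL23, described with their lists. A1 was the highest 4-cell embryo for each of the 10 genes, with 27.5 to 106 CPM, and the other 4-cell embryos were at 16.2 CPM or below.

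The 5 highest mean levels at the 4-cell stage belonged to DNMT1, FAM46C, BTG4, TAX1BP1 and PTTG1, and those in the morulae to CDC26, UBB, HSPA8, EEF1A1 and FTH1. FAM46C, a poly(A) polymerase, fell by 5.07 ± 0.53 from 5571 ± 1422 CPM, and TAX1BP1, an autophagy receptor, by 2.20 ± 0.17 from 4045 ± 901 CPM. CDC26, a subunit of the anaphase promoting complex, was at 1152, 847, 1462, 481 and 245 CPM in the 4-cell embryos, and at 5782 (lowest), 10145 (median) and 16498 CPM (highest) in the morulae, where its groups did not overlap (log2 difference 3.95 ± 0.33, limma adjusted p = 1.7e-09). HSPA8, a constitutive chaperone, rose by 4.64 ± 0.27, EEF1A1 by 2.22 ± 0.20 and FTH1, the heavy chain of ferritin, by 3.02 ± 0.31. UBB, a polyubiquitin gene, was at 1390 to 6711 CPM and 2914 to 5957 CPM and was not called (limma adjusted p = 0.052). Reads of such genes can be shared with processed copies elsewhere in the genome, and how reads with several positions were counted is not given in the sources used here.

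Of 25 transcription factors of the cleavage stages 13 rose and 4 fell (median log2 difference 1.80). ARGFX, a PRD-like homeobox factor of early embryos (chr13:138927391-138928391), was at 36.1, 2.42, 0.242, 0.210 and 1.79 CPM in the 4-cell embryos, and at 287 (lowest, B2), 491 (median) and 1391 CPM (highest) in the morulae. The stages did not overlap, and the log2 difference was 7.35 ± 0.56 (SE, limma adjusted p = 4.5e-10), or 8.1996 without A1. DPRX, of the same class, rose by 4.75 ± 0.43, with 198 CPM in B2 as the highest value. LEUTX, a further factor of that class (chr6:48240324-48248568), went the other way. It was at 131, 202, 734, 53.6 and 37.1 CPM in the 4-cell embryos, and at 0 (lowest), 3.66 (median) and 39.4 CPM (highest, B2) in the morulae, so that the lowest 4-cell embryo overlapped with B2. Its log2 difference was -4.68 ± 0.79 (SE, limma adjusted p = 2.5e-05), and -4.06 without C1. Without B2 the groups were apart. OTX2, another homeobox factor, fell by 2.23 ± 0.27, from 1185 ± 423 to 255 ± 91.8 CPM.

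RNA polymerase II and its general factors gave 19 genes that rose and 5 that fell among 44. POLR2B, the second largest subunit, rose by 4.33 ± 0.24, from 7.15 to 20.8 CPM to 210 to 421 CPM, and B2 was the highest morula. GTF2E1, a subunit of TFIIE, fell by 4.48 ± 0.30, from 2405 ± 808 to 115 ± 77.2 CPM. POLR2E, a subunit shared by the 3 nuclear polymerases, was at 229 ± 103 and 274 ± 101 CPM and was not called (limma adjusted p = 0.39). RNA polymerases I and III gave 10 that rose and 6 that fell among 29.

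The genes that build ribosomes rose as a group. Among 50 nucleolar assembly factors 36 rose and 3 fell (median log2 difference 2.53). NIP7, which takes part in pre-rRNA processing, rose by 4.83 ± 0.34, from 8.72 ± 7.03 to 228 ± 61.6 CPM, and NAT10, an RNA acetyltransferase of the nucleolus, fell by 4.57 ± 0.43, from 1122 ± 388 to 58.0 ± 58.1 CPM. Of 79 cytosolic ribosomal protein genes, a list that includes the ribosome-bound RACK1, 78 rose and 0 fell, with a median log2 difference of 5.28. Summed over the list, the level was 4852 ± 1170 CPM in the 4-cell embryos (SD, n = 5) and 72027 ± 18377 CPM in the morulae (SD, n = 10), with the lowest morula, B2, at 48186 CPM. RACK1 (chr2:57280192-57284846) was at 71.5, 11.2, 16.2, 0.630 and 6.58 CPM in the 4-cell embryos, and at 1027 (lowest, B2), 1526 (median) and 2302 CPM (highest) in the morulae. The groups did not overlap, and the log2 difference was 7.05 ± 0.51 (SE, limma adjusted p = 1.7e-10). RPL23 rose by 6.84 ± 0.49. Without A1 the differences of RACK1 and RPL23 were 7.72 and 7.49, and without D1 they were 6.35 and 6.21. The 1 member not called was RPS24, at 788 ± 221 and 823 ± 206 CPM, with a log2 difference of 0.07 ± 0.21 (limma adjusted p = 0.78). Its 4-cell level was thus already that of the morulae, within the spread between embryos. Many ribosomal protein genes have near-identical processed copies, so levels of single members are uncertain.

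Translation factors and tRNA synthetases mostly rose too. Of 50 translation factors 38 rose and 4 fell, and of 22 aminoacyl tRNA synthetase genes 18 rose and 1 fell. EEF1G, a subunit of elongation factor 1, rose by 6.35 ± 0.49, from 0.484 to 36.3 CPM to 411 to 857 CPM. EIF5B, which joins the ribosomal subunits at initiation, fell by 2.47 ± 0.23, from 1453 ± 319 to 270 ± 96.9 CPM. QARS, glutaminyl tRNA synthetase, rose by 5.87 ± 0.45 (6.56 without A1), and the synthetase that fell was EPRS, which charges glutamate and proline, with a log2 difference of -1.69 ± 0.27.

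Nuclear genes of mitochondria rose likewise. The 13 genes of mitochondrial DNA were not analysed here. Of 66 nuclear subunits of oxidative phosphorylation 64 rose and 0 fell, with a median log2 difference of 3.58, and their summed level was 3707 ± 797 CPM at the 4-cell stage and 33391 ± 9780 CPM in the morulae, with 22023 CPM in B2, the lowest. NDUFB3, a subunit of complex I, was at 17.7, 4.396, 2.42, 0.630 and 3.89 CPM in the 4-cell embryos, and at 262 (lowest, B2), 397 (median) and 810 CPM (highest) in the morulae. No morula came near the highest 4-cell embryo (log2 difference 6.41 ± 0.38, limma adjusted p = 1.6e-11). ATP5H, a subunit of ATP synthase, rose by 6.71 ± 0.44. Among members not called, NDUFA1 had the highest mean, 342 ± 93.3 and 215 ± 97.6 CPM (log2 difference -0.79 ± 0.33). Of 73 mitochondrial ribosomal proteins 60 rose and 0 fell, and MRPL17 rose by 5.61 ± 0.27.

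The citrate cycle and pyruvate entry gave 16 genes that rose and 1 that fell among 24, and glycolysis and glucose uptake 10 and 4 among 24. PDHB, a subunit of pyruvate dehydrogenase, rose by 5.75 ± 0.43, from 0 to 15.9 CPM to 158 to 350 CPM. CS, citrate synthase, was at 1368 ± 261 CPM in the 4-cell embryos and 711 ± 108 CPM in the morulae. The groups of CS did not overlap, but the log2 difference of -0.94 ± 0.18 (limma adjusted p = 0.00011) did not pass the threshold of 1. It passed without 4-cell embryo C1 (-1.035). PGAM1, a glycolytic mutase, rose by 6.46 ± 0.42 (7.10 without A1), from at most 12.1 CPM to at least 132 CPM. LDHA, lactate dehydrogenase, was at 65.0 to 156 CPM at the 4-cell stage and at 21.6 to 120 CPM in 9 morulae, with 294 CPM in B2, and was not called (limma adjusted p = 0.39).

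DNMT1, the maintenance DNA methyltransferase (chr2:68981564-69040364), had the highest mean level of the 4-cell stage, with 16733, 21924, 11944, 9448 and 12336 CPM. In the morulae it was at 85.6 (lowest), 195 (median) and 1752 CPM (highest, B2). The stages did not overlap, and the log2 difference was -5.96 ± 0.47 (SE, limma adjusted p = 6.9e-10). UHRF2, a relative of the protein that brings DNMT1 to DNA, fell by 5.04 ± 0.36, from 3220 ± 986 to 114 ± 103 CPM. Of the 21 genes of DNA methylation and demethylation 8 rose and 7 fell.

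TET1, which oxidizes methylcytosine (chr14:71675671-71812732), was at 21.7, 5.28, 0.727, 9.25 and 7.18 CPM in the 4-cell embryos, and at 20.53 (lowest), 234 (median) and 477 CPM (highest) in the morulae. Its groups overlapped, because morula G1 (20.53 CPM) lay below 4-cell embryo A1 and B2 (30.3 CPM) just above it, and the other 8 morulae were at 153 CPM or above. The log2 difference was 4.57 ± 0.67 (SE, limma adjusted p = 3.6e-06). Among 40 histone methyltransferases and demethylases 17 fell and 8 rose. Within the Polycomb repressive complex EED rose by 5.58 ± 0.34, from 9.79 ± 7.67 to 417 ± 97.7 CPM, and SUZ12, chosen after its values were seen, by 2.45 ± 0.38, from 24.9 ± 17.7 to 123 ± 43.9 CPM. The stages overlapped in SUZ12, as B2 (41.7 CPM) lay below 4-cell embryo C1 (52.1 CPM), and were apart without B2. KMT2A, a methyltransferase of histone H3 lysine 4, fell by 4.33 ± 0.39 and SUV39H2, which methylates H3 lysine 9, by 4.18 ± 0.29. Histone acetylation genes gave 8 that rose and 6 that fell among 27.

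Genes of RNA splicing, protein turnover, nuclear transport and the spindle were described in the same way. Of 55 spliceosome genes 32 rose and 2 fell, and SRSF7, a splicing factor, rose by 4.73 ± 0.50 (4.12 without 4-cell embryo E1). Of 31 proteasome subunits 20 rose and 2 fell, and PSMC6 rose by 5.60 ± 0.35. Importins and nuclear pore genes gave 17 that rose and 7 that fell among 38, and NUP214, a pore protein, fell by 4.79 ± 0.38, from 1131 ± 235 to 50.01 ± 47.0 CPM. Of 34 spindle and kinesin genes 16 fell and 5 rose, and TACC3, a spindle protein, fell by 3.27 ± 0.35.

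The lists of the cell cycle had medians near 0. Of 31 cyclins, kinases and their inhibitors 6 rose and 5 fell (median log2 difference 0.23), and of 45 DNA replication factors 16 rose and 5 fell (median 0.03). CCNC, cyclin C, rose by 5.07 ± 0.29, from 5.02 ± 2.43 to 192 ± 57.3 CPM. CCNB1, the mitotic cyclin B1, was at 764 to 2772 CPM at the 4-cell stage and 1859 to 2657 CPM in the morulae and was not called (limma adjusted p = 0.28). GINS1, of the replicative helicase, rose by 4.32 ± 0.32, PCNA, the sliding clamp, fell by 1.86 ± 0.29, from 2424 ± 1060 to 643 ± 225 CPM, and MCM6, a helicase subunit, was at 334 ± 88.8 and 292 ± 107 CPM (limma adjusted p = 0.47). DNA repair genes gave 9 that rose and 12 that fell among 39, among them CHEK2, a checkpoint kinase, which rose by 3.77 ± 0.32, and BRCA2, of recombination repair, which fell by 3.29 ± 0.19 from 1390 ± 215 CPM.

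The morulae were collected as compacted embryos, in which junctions have formed. Of 44 genes of junctions and polarity 16 rose and 7 fell (median log2 difference 0.73). PKP2, a plakophilin of desmosomes (chr5:41424687-41509590), was at 4.91, 0.220, 0, 0 and 1.20 CPM in the 4-cell embryos, and at 53.2 (lowest), 85.4 (median) and 153 CPM (highest) in the morulae. The groups did not overlap (log2 difference 5.77 ± 0.37, limma adjusted p = 3.5e-11). GJC1, a connexin of gap junctions, fell by 3.44 ± 0.38, and PARD3, a polarity protein, by 2.65 ± 0.29. CDH1, the E-cadherin that holds compacted blastomeres together and a morula marker, was at 118 to 362 CPM in the 4-cell embryos and 209 to 362 CPM in the morulae and was not called (limma adjusted p = 0.16). CLDN1, a claudin of tight junctions, was at 82.3 to 293 CPM and 101 to 1172 CPM, with G1 and B2 as the lowest morulae (log2 difference 1.51 ± 0.44, limma adjusted p = 0.0052). It was called without G1 (1.75).

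Of 31 keratin and actin cytoskeleton genes 12 rose and 0 fell, and TPM3, a tropomyosin, rose by 4.84 ± 0.32. ACTG1, cytoplasmic gamma actin, was at 339 to 412 CPM in the 4-cell embryos and at 326 to 1017 CPM in 9 morulae, but at 2.90 CPM in morula G1. It was not called (log2 difference -0.10 ± 0.84, limma adjusted p = 0.92), and its difference without G1 was 0.62.

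The labels were checked against markers. Besides the oocyte genes above, TFAP2C, a trophectoderm factor, rose from 28.7 to 335 CPM to 554 to 2090 CPM, and CLDN6, TEAD4 and DAB2 rose by 4.93 ± 0.37, 3.99 ± 0.34 and 4.70 ± 0.50. KRT18, a keratin of simple epithelia, rose by 3.40 ± 0.62 in limma but was not called by edgeR, and its partner KRT8, at 0 to 8.07 CPM and 0 to 176 CPM, was not called (limma adjusted p = 0.0096). For both keratins B2 was the highest morula. CDX2 and GATA3, which mark trophectoderm once it has formed, were at most at 3.92 and 8.51 CPM in a morula.

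Of 22 trophectoderm factors 7 rose and 1 fell, and of 26 factors of the inner cell mass and hypoblast 9 rose and 5 fell. YAP1, the coactivator of the TEAD factors, fell by 2.34 ± 0.27, from 446 ± 114 to 90.4 ± 32.2 CPM, and MSX2, a homeobox factor, rose by 4.64 ± 0.38. GATA6, the factor of the hypoblast, was at 15.4, 5.06, 1.45, 0 and 8.07 CPM in the 4-cell embryos, and at 99.7 (lowest, B2), 309 (median) and 440 CPM (highest) in the morulae. All morulae were above all 4-cell embryos (log2 difference 5.89 ± 0.48, limma adjusted p = 9.4e-10). ZFP42, a pluripotency marker, rose by 3.68 ± 0.41, DPPA5 fell by 5.06 ± 0.53 from 1295 ± 1222 CPM, and POU5F1, the pluripotency factor OCT4, was at 51.8 to 94.8 CPM and 33.4 to 70.3 CPM and was not called (limma adjusted p = 0.070).

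Of 37 genes of the activin, nodal and WNT pathways 15 fell and 3 rose (median log2 difference -0.80). LEF1, the nuclear factor of WNT signaling, was at 249, 269, 169, 283 and 193 CPM in the 4-cell embryos, and at 0 (lowest), 4.58 (median) and 27.7 CPM (highest, B2) in the morulae. The groups did not overlap (log2 difference -5.44 ± 0.53, limma adjusted p = 1.1e-08). ACVR1B, a receptor of activin and nodal, fell by 4.66 ± 0.46, and SMAD4, the common mediator of these signals, rose by 2.87 ± 0.29. Among 37 genes of FGF, IGF and LIF signaling 8 rose and 4 fell. ERBB3 rose by 4.72 ± 0.45, with 13.0 CPM in B2 and at least 54.0 CPM in the other morulae, and HBEGF, a growth factor of the EGF family, fell by 3.95 ± 0.44.

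In arginine and polyamine metabolism 8 of 19 genes rose and 3 fell. Beside ARG1, ASS1, which makes argininosuccinate from citrulline, rose by 5.74 ± 0.48. ODC1, the enzyme that makes putrescine from ornithine, and SRM, which makes spermidine from it, were chosen after their values were seen. ODC1 rose by 2.60 ± 0.28, from 462 ± 197 to 2680 ± 837 CPM, and SRM by 5.52 ± 0.45. SMS, spermine synthase, fell by 3.32 ± 0.33, from 618 ± 242 to 62.1 ± 28.8 CPM.

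Amino acid carriers gave 6 that rose and 6 that fell among 28, near the shares of all genes tested (16.0% and 22.7%). SLC1A5, a carrier of glutamine, fell by 4.62 ± 0.68, and SLC7A11, which imports cystine, by 4.56 ± 0.45. The stages overlapped in SLC1A5, as B2 (52.2 CPM) lay above 4-cell embryo C1 (39.0 CPM), and were apart without B2. Serine, one-carbon and glutathione genes gave 9 that rose and 6 that fell among 27. GLDC, of glycine cleavage, rose by 4.76 ± 0.28, from 5.71 to 16.4 CPM to 158 to 435 CPM. PSPH, the last enzyme of serine synthesis, fell by 5.53 ± 0.58 and GSR, glutathione reductase, by 4.96 ± 0.37.

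The lists of lipid metabolism held genes of both directions. Of 32 genes of fatty acid transport, synthesis and lipid droplets 10 rose and 7 fell. FABP5, a fatty acid binding protein, was at 5.43, 2.64, 1.21, 3.36 and 3.29 CPM in the 4-cell embryos, and at 109 (lowest), 201 (median) and 684 CPM (highest, B2) in the morulae. The groups did not overlap (log2 difference 5.73 ± 0.36, limma adjusted p = 3.3e-11). CPT1A, which admits fatty acids to mitochondria, rose by 5.45 ± 0.40, and PLIN2, which coats lipid droplets and was chosen after its values were seen, by 4.93 ± 0.33, from 62.7 ± 51.3 to 1682 ± 599 CPM. CD36, a carrier of fatty acids, fell by 4.86 ± 0.47, and ACACA, the first enzyme of fatty acid synthesis, by 4.56 ± 0.37. Of 22 cholesterol synthesis genes 7 rose and 6 fell, and FDFT1, squalene synthase, fell by 5.26 ± 0.39, from 958 ± 86.6 to 33.5 ± 43.3 CPM, or 19.9 CPM without B2.

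Stress and survival genes were mixed. Of 24 antioxidant enzymes of the NRF2 system 12 rose and 1 fell. PRDX6 rose by 4.90 ± 0.26, and the member that fell was PRDX2, of the same peroxiredoxin family, by 2.69 ± 0.42. Heat shock and unfolded protein genes gave 12 that rose and 6 that fell among 32, and without B2 8 that fell. Apoptosis regulators gave 11 and 3 among 31. BID, a pro-apoptotic relative of BAD, rose by 5.34 ± 0.32, from at most 3.15 CPM to at least 36.2 CPM, and BCL2L1, an inhibitor of apoptosis, fell by 4.46 ± 0.32, from 371 ± 99.1 to 17.4 ± 10.96 CPM. Lysosomal and vacuolar pump genes gave 11 that rose and 1 that fell among 31, and ubiquitin conjugating enzymes 10 and 8 among 31.

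The lists were described by their counts and medians only. Over all genes tested 16.0% rose and 22.7% fell. Counts near these shares, such as those of the amino acid carriers and the cyclins, are not read as a result about the list. No list was set beside genes of like level, and the shares over all genes tested include many genes of low level. Without B2 the count of a list changed by at most 3 genes in either direction, and both counts stayed the same in 25 of the 44 lists of processes. Without 4-cell embryo A1 it also changed by at most 3 genes, and both counts stayed the same in 16 lists.

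**Figure D3:**
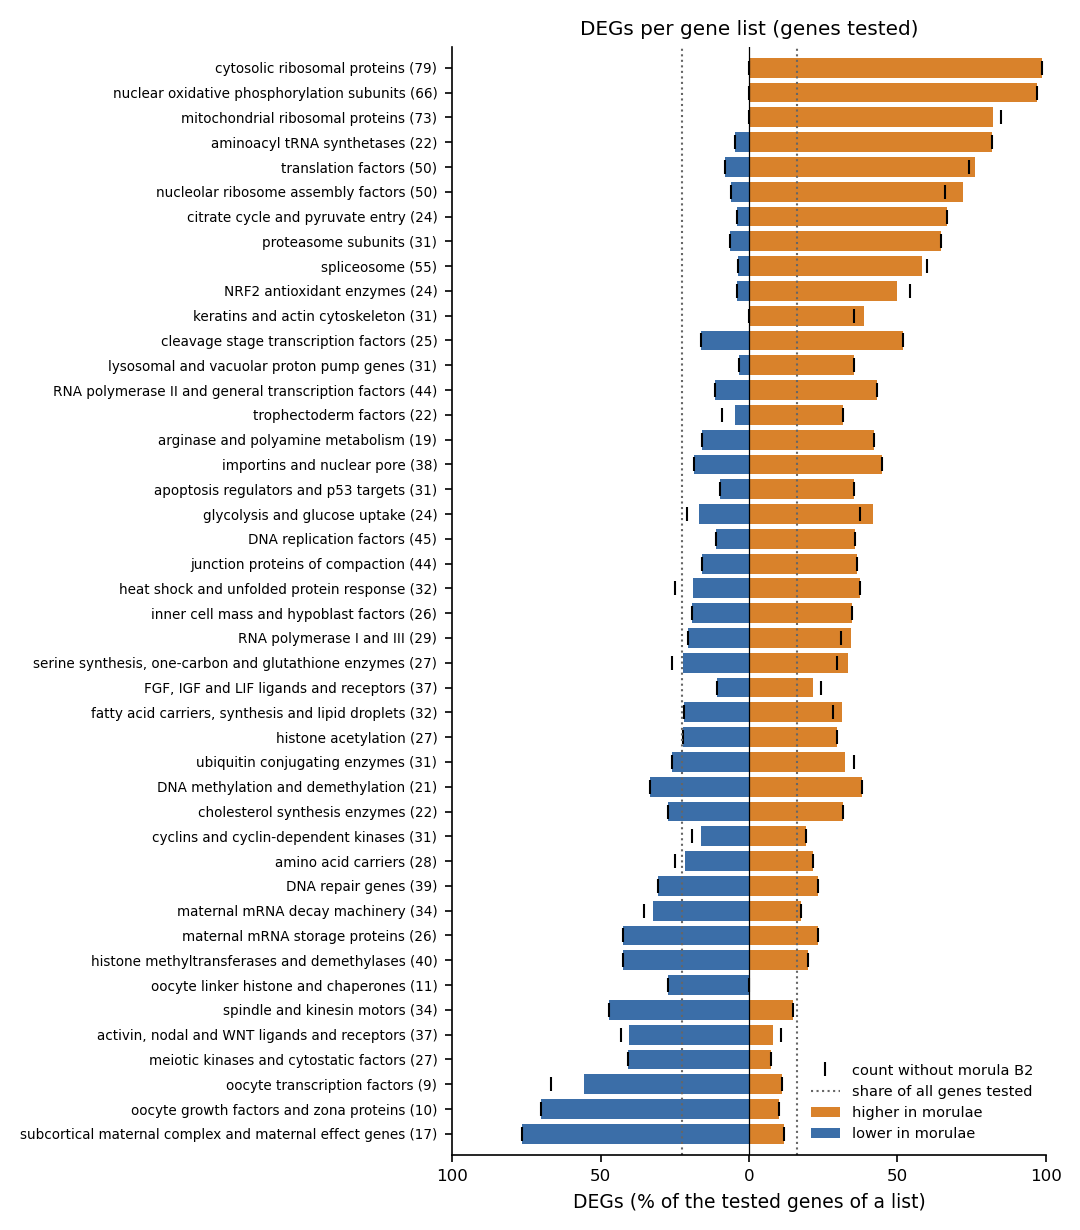
DEGs as a percent of the tested members of each gene list (horizontal, number tested in parentheses), with genes lower in morulae to the left and higher to the right. Ticks are the counts without morula B2, and dotted lines the shares over all genes tested, 22.7% lower and 16.0% higher. These shares include many genes of low level, of which few were called. Cytosolic ribosomal proteins (78 of 79 higher) and oxidative phosphorylation subunits (64 of 66 higher) lie at the top, and the subcortical maternal complex (13 of 17 lower) at the bottom.

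What DEGs shared beyond these lists was described by gene type, length and chromosome in the annotation of Sscrofa11.1, with no test. Of 16683 protein-coding genes tested 19.3% rose and 22.3% fell, of 4004 lncRNA genes 4.57% rose and 28.5% fell, and of 900 pseudogenes 4.00% and 7.56%. The median length on the genome was 56.6 kb for genes that fell, 18.4 kb for genes that rose and 25.6 kb for all protein-coding genes tested. Protein-coding genes were ranked by this length and parted into 5 classes of like size. In the class of the shortest genes (up to 7.51 kb) 23.0% rose and 11.9% fell, and in that of the longest (from 85.7 kb) 9.98% rose and 41.7% fell. Length went with level, as the median 4-cell level of a gene was 1.35 CPM in the class of the shortest and 16.7 CPM in that of the longest, and its part in these shares was not tested. By chromosome, the share that rose ran from 11.2% on chromosome 18 to 18.9% on chromosome 6, and the share that fell from 16.3% on chromosome 12 to 28.5% on chromosome 10. On the X chromosome 13.8% rose and 23.3% fell.

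**Figure D4:**
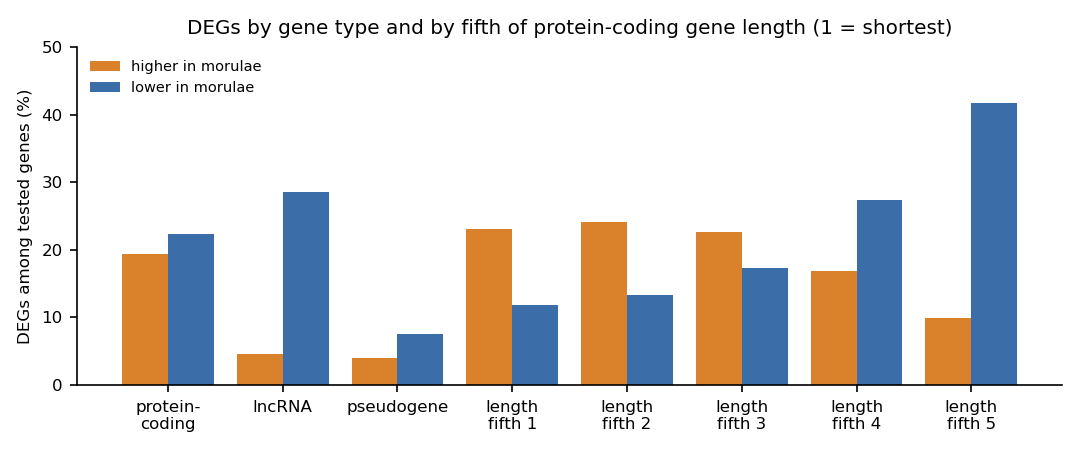
Percent of tested genes (vertical) that were higher (orange) or lower (blue) in morulae, by annotated gene type and by 5 classes of the genomic length of protein-coding genes. The share that fell goes from 11.9% in the shortest class to 41.7% in the longest, and the share that rose from 23.0% to 9.98%.

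The number of genes over a level was compared with exact permutation tests over the embryos (2-sided, over all splits, smallest p 0.000666, Benjamini-Hochberg over 4 measures). The 4-cell embryos had 7462 ± 197 genes over 10 CPM (SD, n = 5) and the morulae 7053 ± 224 (SD, n = 10), a difference of -408 (exact adjusted p = 0.0120). Over 100 CPM there were 2123 ± 68.6 and 1889 ± 85.5 genes (difference -234, exact adjusted p = 0.00533). On reads per M of the library total, without the normalization factor, the differences were -184 and -49.0 and neither passed the test (exact adjusted p = 0.368 for both), so that this difference depends on the factor. The 100 most abundant genes of an embryo held 23.3% ± 1.41 and 21.2% ± 1.93 of its CPM (exact adjusted p = 0.0666), and this passed the threshold of 0.05 without A1 (difference -2.54, exact adjusted p = 0.0480) or without E2 (-2.60, exact adjusted p = 0.0120). Between embryos of a stage, the median SD of a gene with a mean of at least 10 CPM was 0.49 on the log2 scale at the 4-cell stage and 0.51 in the morulae, and 0.47 without B2.

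Morula B2 was compared with the other 9 without a test. Each morula in turn was left out of the fit and placed among the DEGs called without it. Of the genes that fell, 48.4% had B2 within the range of the other morulae, against 82.2% to 90.9% for each of the other 9. Of the genes that rose this was 58.0% in B2 and 61.6% to 89.6% in the others, of which E2 was the lowest and G1 (70.7%) the next. At the median gene, B2 had covered 0.683 of the change in genes that fell and 0.856 in those that rose, beside 0.999 to 1.09 and 0.970 to 1.082 in the others.

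On the log2 scale, over all DEGs called without it, B2 was thus nearer to the other morulae in rising than in falling genes. In CPM a smaller set was described, of abundant genes that were low at the other stage. In this set less remained of the falling genes than was missing of the rising ones. Both the scale and the genes differ between these descriptions, so the change of order cannot be put down to the scale. In 206 genes of at least 100 CPM at the 4-cell stage and under 2% of that in the other 9 morulae, B2 was at a median of 12.9% of the 4-cell mean, and at 9.18% to 19.2% from the 5th to the 95th percentile. In the other morulae, each measured on the genes chosen without it, the medians were 0.314% to 1.85%. In 97 genes of at least 100 CPM in the morulae and under 1% of that in the 4-cell embryos other than A1, A1 was at a median of 4.86% of the mean of the 9 morulae, and at 2.92% to 7.75% from the 5th to the 95th percentile, beside medians of 0.115% to 1.11% for the other 4. In 97 such genes B2 was at a median of 57.0% of the other morulae, and at 12.3% to 121% over the same percentiles. The other morulae, each on its own set of such genes, had medians of 72.7% to 142%, and G1, with the lowest of these, spanned 9.44% to 146%. Relative to their medians, the falling genes of B2 and the rising genes of A1 thus spanned a narrower range than the rising genes of B2. A wide range of rising genes was not particular to B2, as G1 had it too. Whether these shares came from the embryos or from the libraries was not tested.

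**Figure D5:**
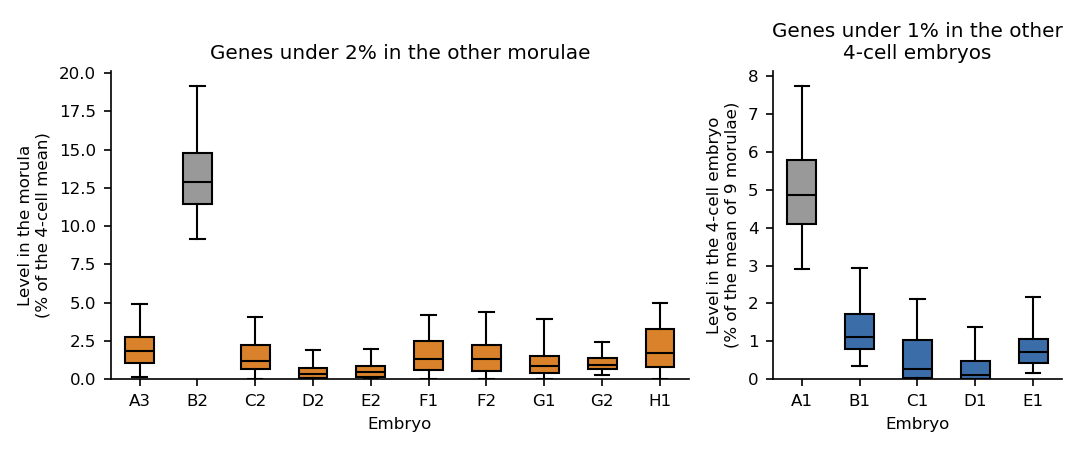
Left, the level of falling genes in each morula as a percent of the 4-cell mean, in genes under 2% in the other morulae. Right, the level of rising genes in each 4-cell embryo as a percent of the mean of 9 morulae, in genes under 1% in the other 4-cell embryos. Boxes span the quartiles with the median, and whiskers the 5th to 95th percentiles. B2 lies at a median of 12.9% and A1 at 4.86%, and the other embryos at medians of 1.85% or less.

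B2 also held some transcripts far above the other morulae. In 34 genes it was at 50 CPM or more and over 10 times the highest other morula, and the same rule gave 1 gene in morula F1 and 0 in each of the other 8. The 4-cell mean lay above B2 in 8 of the 34, such as KPNA7 and WEE2, and below it in 26. Genes of the latter kind, chosen after their values were seen, included ID1 and ID3, inhibitors of differentiation that respond to BMP signals, with 311 and 531 CPM in B2, at most 12.7 and 48.6 CPM in another morula and 4-cell means of 9.20 and 383 CPM. The value of ID3 in B2 lay within the 4-cell values, of which D1 was the highest at 542 CPM. BTG2 and GADD45B, growth arrest genes, were at 299 and 167 CPM in B2 and at most 23.3 and 9.74 CPM in another morula. ISG15 and OAS1, genes induced by interferon, were at 106 and 61.3 CPM, against at most 1.12 and 5.02 CPM. In the other direction, morula G1 was more than 10 times below the lowest other morula in 3 genes, ACTG1, PTGS2 and GLRX, a glutaredoxin, which was at 0.263 CPM in G1 and 228 to 2056 CPM in the others. These are values of single embryos, and no test was made.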

How the data were processed

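Each in vitro produced pig embryo gave 1 Smart-seq2 library. Per the labels and the methods, the authors trimmed reads with Trim Galore, aligned them with HISAT2 to Sus scrofa 11.1, inspected quality with FastQC and MultiQC, and ran edgeR. Which versions, read counter and annotation release were used is not given in the sources used here. The signal values that the authors deposited are CPM over the effective library size, for 30321 gene identifiers, all matched by identifier to the RefSeq table of Sscrofa11.1 and 17413 of them with a symbol that is not a LOC number. The authors' columns of fold changes, p-values and FDR were not used. Values divided by their smallest step gave reads, whole to within 0.1 reads in 100% of values, at 3.89 ± 0.738 M reads per embryo (SD, n = 15). Each embryo was mapped to its stage by its label, and 0 columns stayed unmapped. No pair of embryos of a stage was alike within sampling noise (smallest chi-square over degrees of freedom 14.9).

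The main test was limma 3.58.1 in R 4.3.3 on log2(CPM + 1) with a mean-variance trend, over genes that passed 0.5 CPM in some embryo, Benjamini-Hochberg over all of them. Alternatives were every embryo left out in turn, pseudocounts of 0.5 and 5, other filters and scalings, no trend, and edgeR 4.0.16 and DESeq2 1.42.0 on the recovered reads. Values per embryo were compared with exact permutation tests. The main test was run on simulated data for 5 4-cell embryos and 10 morulae over 18445 genes. It called 1, 11, 41 and 45 of 50 genes changed 2-, 4-, 8- and 16-fold and 1 of 18245 unchanged genes. A 2-fold change equals the log2 threshold of 1, so its misses follow from the threshold and do not measure power. Most 4-fold changes were missed too. The changed genes had a mean over 5 CPM, and their spread was taken from dispersions that edgeR estimated in these data.

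The members and the 45 lists of processes and 4 of markers were chosen with earlier results of these data known. Of 1564 listed symbols 1503 were found, and the others were not analysed here. Genes were named by a rule: the 10 largest rises and falls among DEGs of at least 100 CPM at the higher stage with no overlap of the stages and also called without B2, up to 2 rises and 2 falls per list among DEGs of at least 20 CPM, the highest member of a list that was not a DEG, and the 5 highest means of each stage. The text names part of the genes that the rule gave for lists, part of the stage markers, and genes said to be chosen after their values were seen. Some genes are not reported here, and promoter sequences were not analysed here.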

Additional observations from a re-analysis of the deposited data

Results flagged for a closer look

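In groups of 5 or 10 embryos, a value was singled out where its gap to the nearest other embryo was too large a part of the group's range by Dixon's test at 95%. Chance gives about 1 such value in 20 groups, and here there were 98 in 296, of which morula B2 held 52, 4-cell embryo A1 22, and 4-cell embryo C1 and morula E2 9 each. These counts include 7 genes named for their value in 1 embryo. Without those genes there were 89 in 282, of which B2 held 46.

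Morula B2 stood apart in its position between the stages (0.722) and in the percent of its CPM in genes that fell (16.3%) and in genes that rose (53.4%).

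Among genes that fell, B2 was the highest morula, in CPM, for KPNA7 (235), WEE2 (427), AZIN2 (46.4), SRPX (175), FREM1 (42.5), H1FOO (269), CCSER1 (112), BTG4 (608), BMP15 (268) and KBTBD13 (32.9), the 10 largest falls. It was so too for DNMT1 (1752), FAM46C (1230), PTTG1 (852), ZP4 (243), MOS (139), NPM2 (12.3), NLRP4 (37.3), PADI6 (68.6), ZAR1L (26.4), CPEB1 (24.3), EIF4E1B (6.26), PABPC1L (7.57) and IGF2BP3 (190). The same held for GTF2E1 (329), NAT10 (213), EIF5B (512), TACC3 (62.9), UHRF2 (396), NUP214 (177), DPPA5 (243), LEF1 (27.7) and BCL2L1 (45.9). Among genes of metabolism and transport it held for SLC1A5 (52.2), SLC7A11 (13.8), PSPH (96.8), GSR (24.8), FDFT1 (156), CD36 (48.01) and ACACA (13.8), and for the axonemal gene DNAI1 (7.31).

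B2 was also far above the other morulae for FABP5 (684 CPM), LDHA (294), ID1 (311), ID3 (531), BTG2 (299), GADD45B (167), ISG15 (106) and OAS1 (61.3), and below them for BAD (403).

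The 4-cell embryo A1 was far above the other 4-cell embryos, in CPM, for SULT1E1 (106), ARG1 (33.8), TIMM8A (95.2), ARGFX (36.1), BAD (36.8), PDXK (34.4), RACK1 (71.5), ETNPPL (30.7), ATP6V0D2 (27.5) and RPL23 (48.4), the 10 largest rises. It was so too for PABPC1 (54.9), MRPL17 (14.0), QARS (13.5), ATP5H (21.0), NDUFB3 (17.7), PGAM1 (12.1), PSMC6 (13.1), PKP2 (4.91), ASS1 (9.29), BID (3.15), PLIN2 (153) and SRM (27.3).

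Morula E2 was the highest morula for RACK1 (2302 CPM), HSPA8 (7731), EEF1A1 (6767), FTH1 (8791), RPS24 (1307), ATP5H (907), NDUFB3 (810), SRSF7 (1076) and KPNA4 (393). Its normalization factor, 0.930, was the lowest of any embryo, which raises all CPM of E2 beside reads per M of the library total. The part of the factor in these values was not tested. The 4-cell embryo C1 was the highest of its stage for MOS (1362 CPM), PADI6 (649), LEUTX (734), POLR2E (413), DPPA5 (3467), TFAP2C (335), ID1 (45.3) and GADD45B (36.6), and the lowest for SUV39H2 (194). The 4-cell embryo E1 was the highest for KRT8 (8.07 CPM), KRT18 (9.27) and OAS1 (2.69). The remaining values were POLR2E in morula G1 (517 CPM), PTGS2 in morula G2 (1073) and CDX2 in morula F1 (3.92).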

How the results depend on the processing

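The count of DEGs was 8426, and under the alternatives it ran from 6902 (pseudocount of 5) to 8701 (DESeq2), with 7176 by edgeR and 7775 by edgeR without B2, the last chosen after seeing the data. With 1 embryo left out it was 7839 to 8596. Of 141 named genes under 25 alternatives 0 changed sign while being called in the main fit or in the alternative. Genes called in neither fit did change sign, such as ID1, at 0.32 with B2 and -0.43 without it. ID3 and KRT18 were not called by edgeR, and KRT18 not with a pseudocount of 5. CS (without C1), CLDN1 and GLRX (both without G1 or by edgeR or DESeq2) were called in addition.

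The difference in genes over 10 CPM was -195.2 and in genes over 100 CPM -51.1 on thinned reads, and -183.5 and -49.0 on reads per M of the library total, added after seeing the data. None of the 4 passed the test. Thinning to 2659300 reads, the depth of the shallowest embryo, thus changed little beside the factor. The share of CPM in the 100 most abundant genes differed by -2.60 to -1.61 with 1 embryo left out, and passed the test without A1 or E2. Without B2 or without A1, genes lower in the spliceosome list were 2 and 1, and lower trophectoderm factors 2 and 1. Among markers, higher cumulus genes were 2 and 1, higher sperm genes 1 and 0, and lower blood genes 1 and 0. Fits without A1 for lists were added after seeing the data. With B2 left out of the morula end, A1 lay at 0.114 and the other morulae at 0.931 to 1.05.

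No paired analysis was possible because each embryo was used whole for its library, so no embryo was sampled at both stages. At these depths values of a few CPM rest on few reads.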
